A study of Homo sapiens with 3 samples.

Results

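Peaks of RUNX2 and CBFB coincided at many places that lie between genes, away from any annotated start of transcription. A RUNX2 peak was taken as a shared intergenic peak when it shared at least 1 bp with a CBFB peak and when its midpoint lay outside every annotated gene and over 5 kb from every annotated transcription start site (TSS). Of the 9926 RUNX2 peaks on chromosomes 1 to 22 and X, 9354 were shared, and 1875 of these met the rule. The members were thus chosen by the peak calls of both antibodies and by their place, so their number is a description and carries no test.

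The peaks came from chromatin immunoprecipitation followed by deep sequencing (ChIP-seq) in SAOS2, a human osteosarcoma line that lacks p53, grown without treatment and used before passage 20. One library was made with a custom RUNX2 antibody and 1 with a CBFB antibody, and an input DNA library of the same cells was not analysed here. The deposited lists held 9941 RUNX2 and 27246 CBFB peaks with a position and a score each, but no read counts, so the depth is unknown. With 1 library per antibody there was no replicate check, no p-value was computed, and all intervals below are 95% intervals that cover counting error alone.

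RUNX2 is the transcription factor that commits precursor cells to the osteoblast lineage, and it reads a short DNA core through its Runt domain. CBFB does not contact DNA but pairs with RUNX proteins and strengthens their hold on it. Sites between genes can act as enhancers that loop to promoters over long distances, so the nearest gene is a landmark and not a known target. No expression values were used here, and closeness of a peak to a gene says nothing of an effect on that gene.

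The sequences below come from members with RUNX2 scores from 122 (SDC4) to 1719 (UQCRFS1). They show the RUNX core, TGTGGT on one strand and ACCACA on the other, in capitals. Only members with a core within 100 bp of the midpoint were printed, so its presence in each is by choice. The strongest members nearest to CCN1, SDC3, ZEB2, TLE1, COL5A1 and PLAU, for example, had none there. Each sequence is from the member of highest score nearest to the named gene. It was read from GRCh37 (hg19) on the plus strand as 60 bases around the core closest to the peak midpoint. UQCRFS1, NPHP4 and COL6A1 are the genes nearest to members among the 10 highest scores. TGFBR3, AXIN2, PTHLH, SDC4 and PTPRC lead the gene lists described further on.
UQCRFS1, chr19:28146869-28146928: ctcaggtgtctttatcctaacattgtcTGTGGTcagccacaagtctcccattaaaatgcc
NPHP4, chr1:5465071-5465130: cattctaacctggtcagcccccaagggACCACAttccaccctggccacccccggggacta
COL6A1, chr21:47430720-47430779: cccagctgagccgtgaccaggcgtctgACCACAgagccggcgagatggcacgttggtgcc
TGFBR3, chr1:92389990-92390049: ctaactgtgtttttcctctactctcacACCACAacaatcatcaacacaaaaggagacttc
AXIN2, chr17:63430132-63430191: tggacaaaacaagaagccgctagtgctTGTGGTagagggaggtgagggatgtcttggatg
PTHLH, chr12:28179773-28179832: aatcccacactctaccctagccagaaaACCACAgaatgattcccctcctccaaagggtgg
SDC4, chr20:43983380-43983439: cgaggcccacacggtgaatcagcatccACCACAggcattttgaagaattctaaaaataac
PTPRC, chr1:198745690-198745749: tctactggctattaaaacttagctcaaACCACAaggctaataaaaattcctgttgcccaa

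Some members held the core many times over. The 3 windows below span 180 bases around the midpoints of the 3 members with the most cores in the whole peak, and were chosen after those counts were seen.
ZNF488, chr10:48322186-48322365: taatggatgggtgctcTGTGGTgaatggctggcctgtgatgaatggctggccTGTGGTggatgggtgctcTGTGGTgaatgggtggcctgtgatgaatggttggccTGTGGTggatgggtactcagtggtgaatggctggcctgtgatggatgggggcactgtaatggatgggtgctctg
IRX1, chr5:3323983-3324162: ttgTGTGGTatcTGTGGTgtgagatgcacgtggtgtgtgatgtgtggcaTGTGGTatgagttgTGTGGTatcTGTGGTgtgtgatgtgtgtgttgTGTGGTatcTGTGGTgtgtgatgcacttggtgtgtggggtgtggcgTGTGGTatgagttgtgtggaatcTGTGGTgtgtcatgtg
TMEM209, chr7:129792077-129792256: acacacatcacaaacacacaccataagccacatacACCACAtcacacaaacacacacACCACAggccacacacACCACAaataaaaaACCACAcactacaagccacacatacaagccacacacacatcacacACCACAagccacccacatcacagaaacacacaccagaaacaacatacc

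These are tandem repeats in which the core returned at short steps. The peak near ZNF488 held 67 cores in 3353 bp, and the commonest step from one core to the next was 18 bp, seen 27 times. The peak near IRX1 held 46 cores in 948 bp and the peak near TMEM209 held 44 in 1887 bp. Their scores were far apart, at 2465 for the ZNF488 repeat, 1093 for the TMEM209 repeat and 89.8 for the IRX1 repeat. A dense row of cores was thus found at very high and at ordinary scores.

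The share of shared peaks that lay between genes was 20.0% (19.2 to 20.9). By the same midpoint rule, 4263 shared peaks (45.6%) lay within 5 kb of a TSS and 3216 (34.4%) in the rest of a gene. Positions that meet the rule make up 31.8% of the sequenced genome on these chromosomes, or 902.7 Mb. The class depends on the annotation, and 3451 shared peaks would meet the rule if protein-coding genes alone were counted. The members therefore stood at 2.08 per Mb, below the 5.57 per Mb of shared peaks at TSS and the 2.75 per Mb of those in gene bodies. The share of RUNX2 peaks with a CBFB peak was much the same between genes as elsewhere. Of 1979 intergenic RUNX2 peaks 94.7% were shared, and of the 7947 other RUNX2 peaks 94.1%, a difference of 0.634 percentage points (-0.548 to 1.68).

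The density of members varied among chromosomes, from 0.564 per Mb on chromosome 18 (16 members) to 4.41 on chromosome 20 (85 members) and 4.32 on chromosome 17 (68 members). Chromosome 1 held the most members, 249 at 3.92 per Mb, and the X chromosome 55 at 0.779 per Mb. The number of copies of each chromosome in these cells was not measured here, and its part in these densities was not tested.

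Most members lay within reach of a TSS of some kind. The median distance from a midpoint to the nearest TSS of any annotated gene was 22.6 kb (21.7 to 23.5), and to the nearest TSS of a protein-coding gene 65.3 kb (59.6 to 71.7). A protein-coding TSS stood within 25 kb of 446 members (23.8%). For 715 members (38.1%) it was over 100 kb away, for 124 (6.61%) over 500 kb, and for 25 (1.33%) over 1 Mb. At the limit itself, the 3 members closest to a TSS stood at 5007, 5011 and 5022 bp with scores of 50, 98.1 and 53.4. The 3 shared peaks outside genes that just missed it stood at 4981, 4978 and 4978 bp with scores of 109, 262 and 58.3.

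Members thinned out with distance from protein-coding genes. Between 5 and 100 kb from a protein-coding TSS the density was level, at 3.04 per Mb from 5 to 10 kb, 2.83 from 10 to 25 kb, 3.11 from 25 to 50 kb and 2.77 from 50 to 100 kb, with overlapping intervals. It was 2.13 per Mb (1.92 to 2.35) from 100 to 250 kb and 1.33 (1.15 to 1.54) from 250 to 500 kb. Beyond 500 kb it was 0.715 per Mb (0.594 to 0.852). These last 3 intervals did not overlap each other or those of the nearer bins. GC content around the midpoint fell over the same range, from a mean of 50.8% at 5 to 10 kb to 43.5% beyond 500 kb, and its part in the density was not tested. Neither the median score, between 83.3 and 95.4 over the 7 bins, nor the share of peaks with a RUNX core, between 47.9% and 53.2%, followed the distance.

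**Figure D1:**
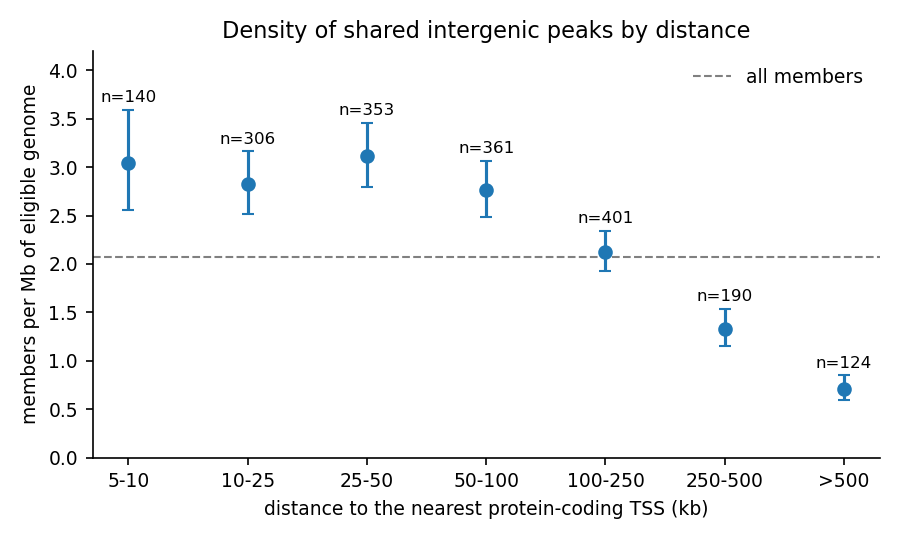
Members per Mb of eligible genome (y axis) by distance of the midpoint to the nearest protein-coding TSS in kb (x axis), with 95% Poisson intervals and the number of members above each point. The dashed line marks the 2.08 per Mb of all members. The first 4 bins sit between 2.77 and 3.11 per Mb, and the last falls to 0.715.

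More members lay beyond the 3′ end of their nearest protein-coding gene than before its 5′ end. There were 1016 downstream, or 2.29 per Mb (2.15 to 2.43) of the eligible genome on that side, and 859 upstream, or 1.87 per Mb (1.75 to 2.00). The nearest gene is taken here and below by distance from the midpoint to the gene body.

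The 5 members farthest from any protein-coding TSS lay in long stretches without protein-coding genes. A TSS of any annotated gene was much nearer, at 9.6 to 74.0 kb. The farthest, chr4:33412785-33413516, was 2486 kb from a protein-coding TSS and 2265 kb beyond PCDH7, which encodes a protocadherin. It had a RUNX2 score of 60.1, a CBFB score of 315 and 1 RUNX core within 100 bp. A second member in that stretch, chr4:33717567-33718288, lay on the side of ARAP2, 2330 kb from a protein-coding TSS. It scored 129 for RUNX2 and 792 for CBFB with 2 cores. The member at chr2:92261085-92262979, at 1724 kb from the gene RP11-685N3.1, scored 84.9 and lay within 500 kb of a chromosome end or assembly gap. The remaining members were the peak near UQCRFS1 and chr1:106050086-106051242. The former, at 1557 kb, also lay within 500 kb of an end or gap, and 9.6 kb from a TSS of any annotated gene. The latter lay 1549 kb from PRMT6, which encodes an arginine methyltransferase, with a score of 62.0 and 1 core.

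The score of a peak, read as the MACS score, which grows with -log10 of the p-value, ranks peaks within a list and was not compared between the lists. Members had a median RUNX2 score of 89.9 (87.5 to 92.8), with quartiles of 65.1 and 137. Shared peaks at TSS had a median of 86.8 (85.1 to 88.7) and those in gene bodies 85.2 (83.2 to 87.1). The top 20% of all RUNX2 scores, from 144 upwards, held 430 members (22.9%), against 20.0% of the gene body peaks, a difference of 2.91 points (0.580 to 5.28). Against the 21.1% of TSS peaks the difference was 1.84 points (-0.385 to 4.14), which is within counting error. A score of 200 or more was reached by 234 members (12.48%), beside 10.40% of all RUNX2 peaks, 10.84% of TSS peaks and 10.35% of gene body peaks. The differences were 1.64 points (-0.0761 to 3.45) to TSS peaks and 2.13 points (0.329 to 3.99) to gene body peaks. One of 500 or more was reached by 22 members (1.17%), beside 0.967% of all RUNX2 peaks, 1.10% of TSS peaks and 0.808% of gene body peaks. The 104 intergenic RUNX2 peaks without CBFB were weak, with a median of 56.8 (55.0 to 61.8), near the lowest score in the list, 50. Peak widths did not set the classes apart, with medians of 946 bp for members, 950 bp at TSS and 937 bp in gene bodies.

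In the members, strong RUNX2 peaks were paired with strong CBFB peaks. Spearman's rho of the scores over the 1875 members was 0.653, against 0.570 for the shared peaks at TSS and 0.618 for those in gene bodies. The points of such a correlation share their libraries, their peak widths and local read depth, so it stands as a description. When members were divided by RUNX2 score into 5 groups of 375, the median score of the CBFB partner went from 170 in the lowest group to 185, 265, 386 and 786, and the median peak width from 810 to 1129 bp. A total of 1564 members (83.4%) lay wholly inside the CBFB peak, beside 82.5% of all shared peaks, 81.1% at TSS and 83.8% in gene bodies. The median offset of the midpoints was 86 bp, against 106 bp at TSS and 88 bp in gene bodies. All but 5 members had a single CBFB partner, as did 9336 of all 9354 shared peaks. A CBFB peak that touched no RUNX2 peak lay within 25 kb of 1021 members (54.5%), against 54.9% of TSS peaks and 57.4% of gene body peaks.

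**Figure D2:**
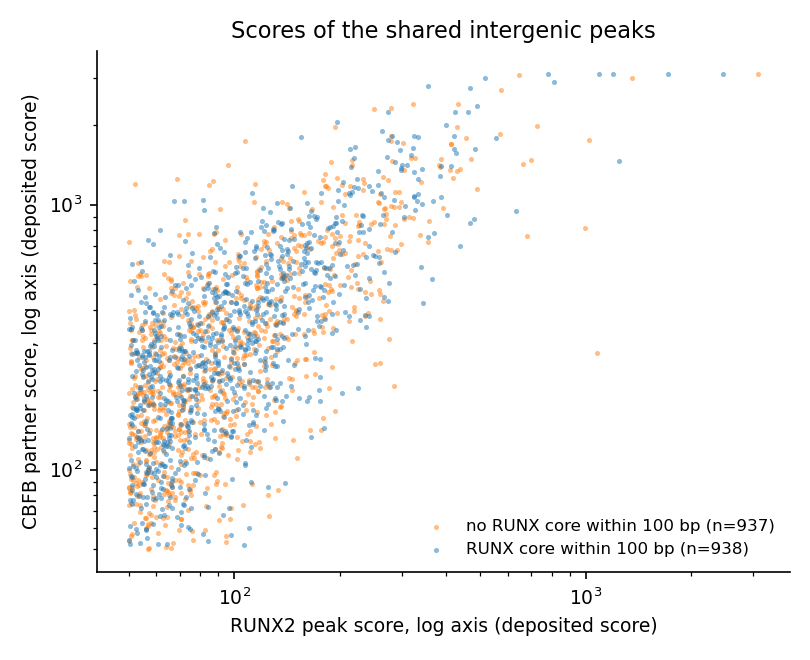
RUNX2 score (x axis, log scale) against the score of the CBFB partner (y axis, log scale) for the 1875 members, 1 point each, blue with and orange without a RUNX core within 100 bp of the midpoint. The cloud rises together with a rho of 0.653, and 6 members reach the top CBFB score of 3100. Points with and without a core overlap over the whole range.

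The 10 members with the highest RUNX2 score were not typical of the rest, and 6 of them lay within 500 kb of a chromosome end or of an assembly gap. Of all members, 133 (7.09%) lay so, against 8.77% of TSS peaks and 4.26% of gene body peaks. Such places are rich in repeats whose reads are hard to place, and the part of this in the scores was not tested.

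The highest score, 3100, belonged to chr5:9836-12179 at the start of chromosome 5. Its CBFB score was also 3100, the top value of both lists. The peak held no RUNX core but 300 copies of the telomere repeat TTAGGG or its complement. The other such peaks among the 10 were chr2:243152312-243153141 with a score of 1078 and 21 copies, and chr4:9836-10650 with 998 and 27 copies. No other member held 10 or more copies. These 3 peaks carried no core, and the one on chromosome 2 had a CBFB score of 275.

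The core repeats followed. The repeat near ZNF488, chr10:48320600-48323952, had the second score at 2465, and the one near TMEM209, chr7:129791224-129793110, had 1093. Both had a CBFB score of 3100. The peak chr19:28144072-28149900 was the widest member at 5829 bp and scored 1719 with 15 cores. It lay 1549 kb from UQCRFS1, which encodes a subunit of respiratory complex III.

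The other 4 of the 10 lay away from ends and gaps. The peak chr1:86071255-86074191 stood 22.5 kb downstream of CCN1, the matricellular protein whose gene is a classic target of YAP. It scored 1357 for RUNX2 and 3004 for CBFB, and its 5 cores all lay over 100 bp from the midpoint. The peak chr1:5463877-5466297, at 458 kb downstream of NPHP4, a gene of the cilium, scored 1245 with 15 cores. The peak chr21:47430034-47431513, at 5.81 kb downstream of COL6A1, a collagen VI chain, scored 1197 for RUNX2 and 3100 for CBFB with 8 cores. The peak chr1:31341642-31342782 scored 1020.5 and lay 0.101 kb past the end of SDC3, a syndecan, with 4 cores.

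Copies of the core and the score went together over the whole set. The 242 members with no core anywhere in the peak had a median score of 79.0 (70.4 to 86.2). The 577 with 1 core had 85.2, the 593 with 2 had 90.1, the 401 with 3 or 4 had 102 (93.1 to 110) and the 52 with 5 to 9 had 133 (98.3 to 183). Wider peaks hold more cores by length alone, and the median width rose in step from 906 to 1199 bp. The part of width in the scores was not tested. Only 10 members held 10 or more cores, and their scores ran from 89.8 to 2465.

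Around the midpoint, 938 members (50.03%, 47.7 to 52.3) held the RUNX core within 100 bp, beside 43.2% of all RUNX2 peaks. In flanking windows of equal size, centred 2 kb away and clear of any peak, the share was 13.8% (12.7 to 15.1), so the core was 3.61 times as frequent at the midpoints. The longer form TGTGGTT stood in 27.6% of members and in 3.22% of their flanks, 8.57 times as often. It was in 23.4% of all RUNX2 peaks and 28.6% of gene body peaks. The difference of members to the latter was -0.949 points (-3.48 to 1.63). One core was found in 689 members, 2 in 204, 3 in 33, and 4 or more in 12. Cores were spread evenly over the centre of the peak, at 3.51 per kb within 25 bp of the midpoint and 3.22 per kb at 75 to 100 bp. They then thinned to 2.19 per kb at 150 to 200 bp and 1.027 per kb at 300 to 400 bp.

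Members held this motif more often than TSS peaks did, while a difference to gene body peaks was not detectable. The core was present in 35.0% of shared TSS peaks, 15.03 points fewer (12.3 to 17.7), and the share was higher in members on 22 of 23 chromosomes, chromosome 10 being the exception. In gene bodies the share was 52.1%, and the difference of members minus gene body peaks was -2.12 points (-4.96 to 0.727). In the 104 intergenic RUNX2 peaks without CBFB it was 40.4%, which left a difference of 9.64 points (-0.230 to 18.8).

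Base composition moved with the contrast to TSS peaks. The bases within 100 bp of the midpoint had a mean GC content of 47.5% ± 8.35 (SD over peaks) in members, 46.9% ± 8.18 in gene body peaks and 55.3% ± 10.9 at TSS. At least 10 CpG were found in 3.63% of members and in 34.3% of TSS peaks. In the band of 40 to 50% GC, which was set after these values were seen, the core stood in 54.1% of 854 members and in 53.2% of 1080 TSS peaks, a difference of 0.858 points (-3.61 to 5.32). From 50 to 60% GC the shares were 50.6% and 36.9%, a difference of 13.7 points (8.69 to 18.7). At 60% GC or more they were 33.3% and 16.8%, a difference of 16.5 points (9.16 to 24.7). Under 40% GC the difference was -4.28 points (-11.6 to 3.10). The gap to TSS peaks thus stood in the GC-rich windows and was not detectable in the others.

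The AP-1 motif TGAGTCA, the site of FOS and JUN dimers, lay within 100 bp of 224 members (11.9%, 10.5 to 13.5), beside 9.7% of all RUNX2 peaks. It stood in 3.28% of flanks and was thus 3.64 times as frequent at the midpoints. TSS peaks had it in 7.81%, a difference of 4.14 points (2.51 to 5.86), and gene body peaks in 11.4%, a difference of 0.535 points (-1.27 to 2.41). Within bands of GC content the difference to TSS peaks was 4.04 points (-0.360 to 8.50) under 40%, 1.04 (-1.76 to 3.91) at 40 to 50%, 3.38 (0.305 to 6.82) at 50 to 60% and 7.57 (3.05 to 13.9) at 60% or more. Core and AP-1 motif occurred together in 120 members (6.40%), against 0.296% of flanks and 4.896% of all RUNX2 peaks. The difference of members to gene body peaks was 0.399 points (-0.946 to 1.82), and to TSS peaks 2.69 points (1.504 to 4.004). Whether core and AP-1 motif met more often than their separate shares imply was not tested. The 120 members with both motifs had a median RUNX2 score of 99.7 (84.5 to 108), and the 818 with a core alone 91.8 (88.0 to 96.7). The 104 with AP-1 alone had 79.6 (72.7 to 90.4) and the 833 with neither 88.1 (84.1 to 92.8). The intervals of these 4 groups overlapped.

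**Figure D3:**
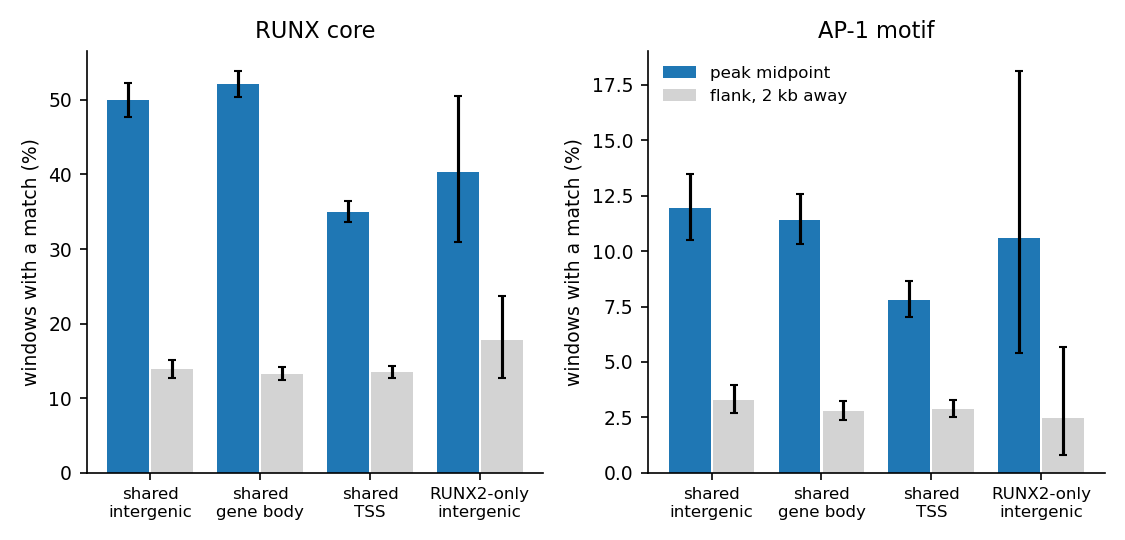
Share of windows (y axis, %) with the RUNX core (left) and the AP-1 motif (right) within 100 bp of the midpoint of the peaks of 4 groups (blue) and in their flanks 2 kb away (grey), with exact 95% intervals. Members hold the core in 50.03% and AP-1 in 11.9%, close to gene body peaks and above TSS peaks at 35.0% and 7.81%. The grey bars of the shared groups lie between 13.3% and 13.8% for the core.

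Promoter motifs were scarcer in the members, and also in shared gene body peaks, than in shared TSS peaks. The ETS motif CCGGAAG was in 13 members (0.693%), 0.902% of gene body peaks and 5.28% of TSS peaks, beside 3.04% of all RUNX2 peaks. The GC box GGGCGG, bound by SP factors, stood in 5.28%, 4.94%, 23.8% and 13.6% in the same order. For the E-box CACGTG the shares were 1.81%, 2.74%, 4.03% and 3.06%. In the flanks of members the ETS motif stood in 0.444%, the GC box in 3.28% and the E-box in 2.01%. The difference of members to flanks was 2.00 points (0.863 to 3.23) for the GC box. It was 0.250 points (-0.157 to 0.769) for the ETS motif and -0.199 points (-0.936 to 0.627) for the E-box. The TEAD motif GGAATG was in 17.0% of members, 10.4% of their flanks and 15.5% of all RUNX2 peaks. TSS peaks had it in 13.9%, a difference of 3.15 points (1.20 to 5.18). Gene body peaks had it in 17.2%, a difference of -0.213 points (-2.33 to 1.96). A consensus for CTCF, the insulator protein, was in 4 members (0.213%), beside 0.363% of all RUNX2 peaks, 0.540% of TSS peaks and 0.124% of gene body peaks. It was also in 4 of the 104 intergenic RUNX2 peaks without CBFB (3.85%). The difference of members to these was -3.63 points (-9.26 to -1.27). All motifs were searched on both strands, and a match is a stretch of letters and not a proven site.

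Within the members, the presence of a motif near the midpoint varied little with the score. The share of peaks with a core within 100 bp was 47.5%, 46.4%, 50.9%, 52.5% and 52.8% from the lowest to the highest of the 5 groups by RUNX2 score, with overlapping intervals. For AP-1 it was 12.53%, 10.4%, 14.1%, 12.53% and 10.1%.

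Members were spread over many genes. The 1875 members had 1199 different nearest protein-coding genes, which is 9.25% of the 12968 protein-coding genes that have any eligible genome nearer to them than to another such gene. That stretch is called the territory of a gene below. A single member was nearest to 836 genes, 2 to 215, 3 to 74, 4 to 36 and 5 to 18. The 20 genes with 6 or more held 153 members (8.16%), and had long territories, with a median of 0.499 Mb against 0.0182 Mb for all genes with any.

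TLE1 had the most members of all genes. TLE1 encodes a Groucho-family corepressor that RUNX proteins recruit. All 14 members lay downstream of it, from 4.63 to 743 kb, with scores from 50.7 to 415 and a median of 102, and 7 of them held a core. They stood in a territory of 0.903 Mb, at 15.5 per Mb. Of the 14, 7 lay in a 1 Mb window with over 5 times the median number of RUNX2 peaks.

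IRS1, which encodes an adaptor of the insulin and IGF receptors, followed with 11 members, all downstream. Their scores ran from 53.1 to 187, and 4 of the 11 held a core within 100 bp of the midpoint. PSAT1, an enzyme of serine synthesis, had 9 downstream members with scores of 80.8 to 267, and 7 of the 9 held a core. NFATC2, a transcription factor under calcineurin control, had 8 members in a territory of 0.184 Mb, or 43.5 per Mb, and 3 of them held an AP-1 motif and 1 a core. BCOR, a corepressor that binds BCL6, had 8 with scores of 63.4 to 287, and 5 of them held a core. C6orf118 had 8 with scores of 54.7 to 142. All 8 members nearest to ZXDA, on the X chromosome, lay within 500 kb of an assembly gap, with scores of 54.1 to 440. KLF4, a transcription factor of stem cells and epithelia, had 7 members, all upstream, with scores of 50.7 to 192.

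A set of 16 gene lists was used to describe the neighbours, 12 on bone, signalling, survival and chromatin and 4 on other cell types. The lists were chosen with earlier results of these data known. The contrasts between them are thus descriptions and give no independent support. Of the 273 genes of the 12 lists with a territory, 60 (21.98%) were the nearest gene of at least 1 member, and their 139 members stood at 3.90 per Mb (3.28 to 4.60). For genes in no list the values were 1136 of 12636 (8.99%) and 2.00 per Mb (1.91 to 2.10). For the 4 lists of neuronal, hepatocyte, blood and muscle genes they were 3 of 59 and 1.501 per Mb (0.551 to 3.27). Since long territories hold more members, genes were also compared within groups of territory length. Up to 0.05 Mb, the density was 5.71 per Mb (3.12 to 9.58) for the 12 lists and 3.55 (3.24 to 3.88) for genes in no list. From 0.05 to 0.2 Mb it was 4.16 (2.93 to 5.73) and 2.93 (2.71 to 3.16). From 0.2 to 0.5 Mb it was 4.98 (3.62 to 6.68) and 1.66 (1.48 to 1.85), and above 0.5 Mb it was 2.85 (2.07 to 3.82) and 0.865 (0.765 to 0.976). The intervals of the pair were apart in the longer territories and overlapped in the shorter ones.

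**Figure D4:**
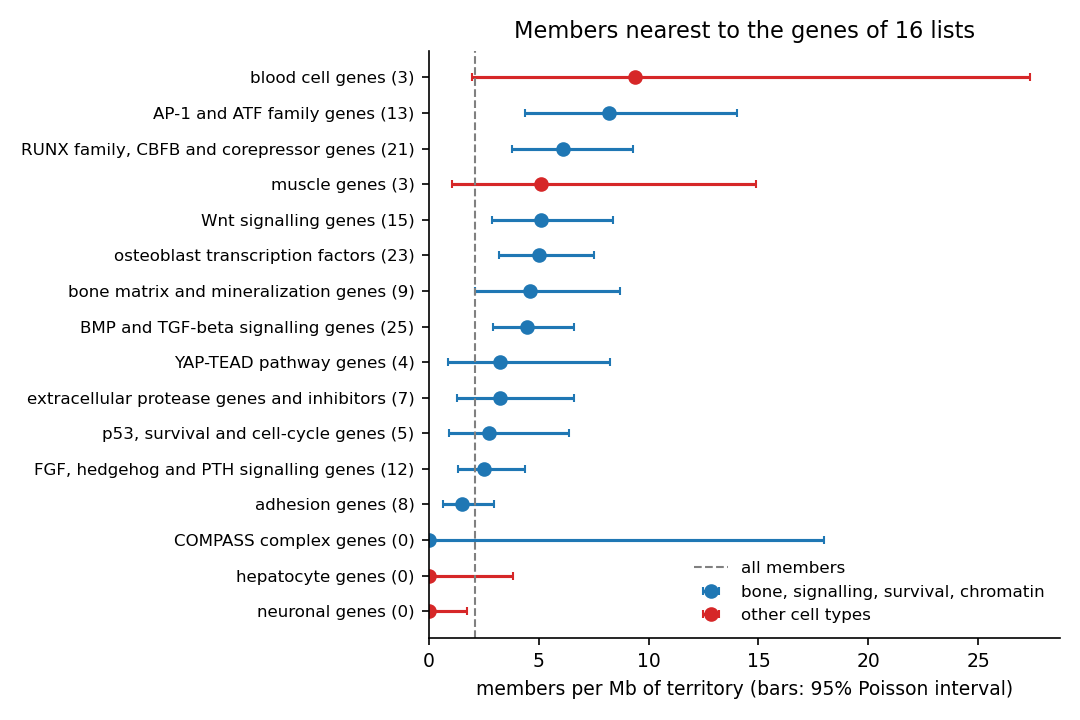
Members per Mb of territory (x axis) for the genes of 16 lists (y axis, number of members in brackets), with 95% Poisson intervals, in blue for bone, signalling, survival and chromatin lists and in red for lists of other cell types. The dashed line marks the 2.08 per Mb of all members. The RUNX family list stands at 6.08 per Mb with 21 members, of which 14 are nearest to TLE1.

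Of the osteoblast transcription factors, 9 of 26 (34.6%) were nearest to a member, with 23 members at 4.99 per Mb (3.16 to 7.49). Without the gene with most members the list stood at 3.94 per Mb. The member of highest score was upstream of ZEB2, a zinc finger repressor, at 139 kb, with a score of 244. SOX9, the main regulator of cartilage, had 3 members, the strongest at 242 and 743 kb upstream. DLX6, a homeobox gene, had 1 member at 55.6 kb upstream with a score of 137.

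RUNX2 itself was the nearest gene of 3 members, all beyond its 3′ end. The peak chr6:45665205-45666239 lay 33.6 kb downstream with a RUNX2 score of 114 and a CBFB score of 331. The peak chr6:45671824-45672928 lay 40.3 kb downstream with scores of 56.7 and 183, and chr6:45709244-45710160 lay 77.6 kb downstream with 74.8 and 347. The last one alone held a core within 100 bp. SP7, ALPL and CBFB were the nearest gene of no member, and their territories were short, at 0.0125, 0.0092 and 0.0039 Mb.

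The list of RUNX genes, CBFB and their corepressors had 5 of 14 genes (35.7%) with a member and 21 members at 6.08 per Mb. Without TLE1 it had 7 members at 2.75 per Mb. RUNX3 had 1 member at 68.9 kb upstream with a score of 224, and the corepressors TLE3 and TLE4 had 1 and 2, with top scores of 210 and 195.

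Ligands, receptors and inhibitors of BMP and TGF-beta signalling had members at 11 of 38 genes (28.9%), 25 in all at 4.47 per Mb (2.90 to 6.60). The strongest lay 18.1 kb upstream of TGFBR3, the co-receptor betaglycan, with a score of 467, a CBFB score of 2749, 2 cores and an AP-1 motif. The ligand gene TGFB2 had 4 members with scores of 72.9 to 422. The bone morphogenetic protein genes BMP4 and BMP7 had 5 and 3, with top scores of 241 and 214. Without BMP4 the list stood at 3.75 per Mb.

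Wnt signalling genes were nearest to members in 8 of 34 cases (23.5%), with 15 members at 5.08 per Mb (2.84 to 8.37). AXIN2, a scaffold that restrains beta-catenin, had the strongest, at 94.5 kb downstream with a score of 325. WNT11, a ligand, had 3 members of up to 242, SFRP4, a secreted antagonist, had 1 of 181, and FZD7, a receptor, had 1 of 137. Of the 15, 6 belonged to CTNNB1, which encodes beta-catenin, and without them the list stood at 3.36 per Mb.

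The AP-1 and ATF list had 3 of 15 genes with a member but 13 members, at 8.20 per Mb (4.37 to 14.0). MAF, a basic leucine zipper factor, held 4 of them with a top score of 206, and the stress factor ATF3 held 1 of 182. Without the gene with most members the list stood at 6.80 per Mb.

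Genes of FGF, hedgehog and PTH signalling had members at 4 of 24 genes, 12 in all at 2.51 per Mb. Of these, 7 were nearest to FGFR2, an FGF receptor, with scores of 54.3 to 164, and without them the list stood at 1.12 per Mb. PTHLH, the parathyroid hormone-related protein, had the strongest, at 54.0 kb upstream with a score of 199. PTCH1, the hedgehog receptor, and GLI2, a transcription factor of that pathway, had 2 each, with top scores of 160 and 82.3.

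Bone matrix genes were neighbours in 4 of 20 cases, with 9 members at 4.58 per Mb (2.09 to 8.68). The fibrillar collagen genes COL5A1, COL11A1 and COL3A1 had 3, 4 and 1, with top scores of 233, 163 and 69.9, and ANKH, a regulator of pyrophosphate export, had 1 of 53.1. All 3 members of COL5A1 and all 4 of COL11A1 lay within 500 kb of a chromosome end or assembly gap. Without COL11A1 the bone matrix list stood at 3.59 per Mb. Protease genes and their inhibitors had 7 of 30 genes with 1 member each, at 3.21 per Mb. PLAU and PLAT, the plasminogen activators, had scores of 439 and 323, TIMP2, a metalloproteinase inhibitor, 144, and ADAMTS1, a secreted protease, 115.

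YAP-TEAD genes had 3 of 19 genes with 4 members at 3.21 per Mb, led by CCN1 with 2, of 1357 and 189, and the list stood at 1.62 per Mb without it. AMOTL2, a partner of YAP, and STK3, a Hippo kinase, had 1 each with 89.5 and 75.1. Adhesion genes were at 1.49 per Mb (0.645 to 2.94), with 8 members at 4 of 21 genes. The syndecans SDC4, SDC2 and SDC1 had 1 each, of 122, 87.2 and 53.7, and N-cadherin, CDH2, had 5 of up to 117, without which the list stood at 0.751 per Mb. Survival and cell-cycle genes had 3 of 25 genes with 5 members at 2.73 per Mb, or 1.295 without MYC. MYC, a growth-promoting transcription factor, had 3 of up to 214, the strongest at 648 kb downstream, TP63 had 1 of 116, and PMAIP1, a pro-apoptotic gene, 1 of 76.7. No gene of the COMPASS histone methyltransferase complex was nearest to a member, in a territory of 0.205 Mb for 9 genes.

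Among the genes of other cell types, none of 16 neuronal and none of 14 hepatocyte genes was nearest to a member. PTPRC, the leukocyte antigen CD45, had 3 members of 55.8 to 224. PAX7, a factor of muscle progenitors, had 2 and MB, myoglobin, had 1, of up to 177 and 53.8. In their short territories the blood list thus stood at 9.36 per Mb (1.93 to 27.4) and the muscle list at 5.09 (1.05 to 14.9), with wide intervals that overlapped those of all 12 lists above.

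Members often came in groups. Another member lay within 25 kb of 592 members (31.6%, 29.5 to 33.7). Counting any RUNX2 peak as a neighbour, the share was 786 members (41.9%, 39.7 to 44.2), beside 39.7% of all RUNX2 peaks, 39.5% of shared TSS peaks and 40.5% of shared gene body peaks. The differences were 2.39 points (-0.268 to 5.07) to the former and 1.37 points (-1.42 to 4.18) to the latter, so grouping was not detectably stronger than elsewhere. Chained at gaps of up to 25 kb, members formed 250 clusters of 2 or more, of which 191 had 2 members, 39 had 3, 13 had 4 and 7 had 5 or more. Grouped members had a median score of 95.3 (90.03 to 102) and those alone 87.5 (84.0 to 90.8). A core was present in 50.5% of the former and 49.8% of the latter.

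The largest cluster, with 8 members over 95.8 kb at chr6:44585611-44681419, lay between CDC5L, a splicing factor gene, and SUPT3H, which encodes a subunit of the SAGA complex. In order of position its scores were 146, 102, 71.4, 56.7, 325, 135, 219 and 159, and 5 of the 8 held a core. All 8 lay in a dense 1 Mb window that held 32 RUNX2 peaks, 12 of them members. The next was on the X chromosome, chrX:58226140-58273329, with 6 members and scores of 54.1 to 440, all near an assembly gap beyond ZXDA. The 6 members at chr2:42310997-42369648 filled the space between PKDCC, a secreted kinase, and EML4, a microtubule protein, with scores of 74.0 to 225. The 6 members at chr9:84429828-84459706 stood 84.1 to 113 kb upstream of SPATA31D4 within 29.9 kb, with scores of 51.8 to 182. The 5 members downstream of QPCT, which encodes glutaminyl cyclase, at chr2:37603670-37639821, had even scores of 101 to 161, and 4 held a core. An AP-1 motif was found in 1 member of these 5 clusters, the last one of the chromosome 9 cluster by position.

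**Figure D5:**
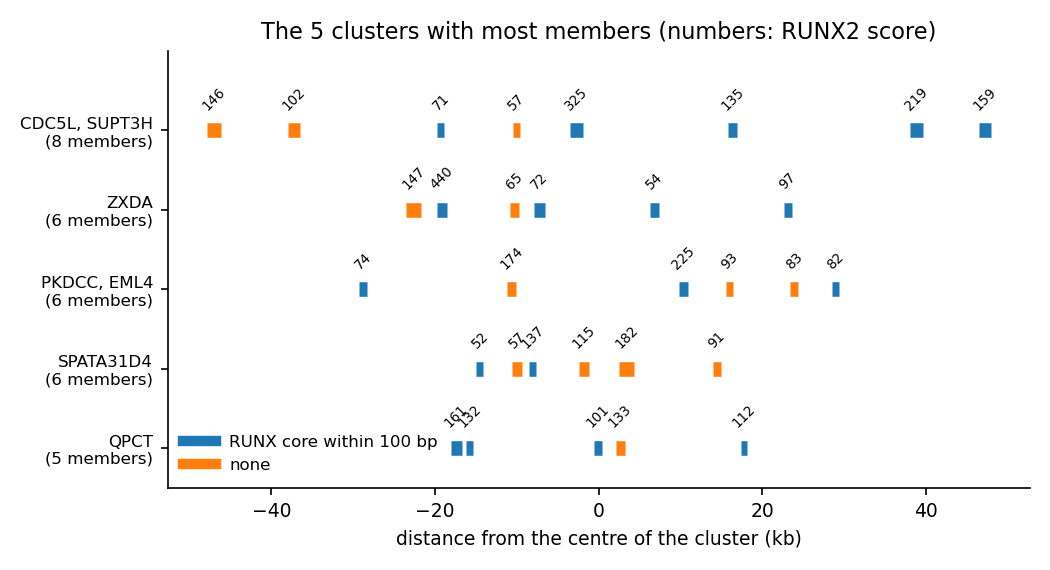
Position of each member (blocks, to scale) in kb from the centre of its cluster (x axis) for the 5 clusters with most members, named by their nearest genes (y axis). Blue blocks hold a RUNX core within 100 bp of the midpoint and orange blocks do not, and the number above each block is its RUNX2 score. The CDC5L and SUPT3H cluster is the widest, at 95.8 kb, and the SPATA31D4 cluster the tightest, at 29.9 kb.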

How the data were processed

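SAOS2 cells were profiled by ChIP-seq with 1 library per antibody. Per the submitters' processing notes, CASAVA 1.8.2, MACS 1.4.1 and build hg19 were used. The authors called peaks with MACS, and the score they deposited for each peak was read here as the MACS score, which grows with -log10 of the p-value, judging by how the peaks are named and by the values. The calling limit, and whether the input served as control, were not given in the sources used here. In both lists the scores ran from 50 to 3100, and peaks tied at 3100 are not ranked apart.

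Peaks were placed by midpoint against GENCODE release 44 lifted to GRCh37 (63827 genes on chromosomes 1 to 22 and X, 20098 of them protein-coding), and 15 RUNX2 peaks on other contigs were left out. Chromosome names and lengths of the lists were checked against the genome sequence, and no peak ended beyond its chromosome. Eligible genome was counted every 100 bp outside runs of N. Where a RUNX2 peak met several CBFB peaks, the partner of highest score was used. Flanks were windows 2 kb from the midpoint that touched no peak of either list. Shares carry exact Clopper-Pearson intervals, differences Newcombe intervals, densities Poisson intervals and medians order-statistic intervals, all of 95%. Each antibody had 1 library and peaks are not replicates, so no p-value was computed. The steps were tested on simulated annotations, peaks and sequences.

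Named were the 10 members of highest RUNX2 score, the 10 genes nearest to most members, the 5 clusters with most members, the 5 members farthest from a protein-coding TSS, up to 4 genes per list with the highest-scoring member, and members nearest to SP7, ALPL, RUNX2 or CBFB. Some genes that the rule names are not reported here. The members and lists were chosen with earlier results of these data known. Alternatives covered the overlap, the distance to a TSS, the gene classes, the score, dense windows, chromosome ends, the partner, the reach of a cluster and the form and reach of the motifs. Scripts used pandas 2.3.3, numpy 2.4.6, matplotlib 3.10.9 and scipy 1.17.1 under Python 3.11.15.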

Additional observations from a re-analysis of the deposited data

How the results depend on the processing

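Of 54 alternative values for 9 results, 35 stayed within the counting interval of the reported value (for counts, within 1.5 times) and 19 did not. Requiring a midpoint over 25 kb from every TSS left 853 members, 9.12% of the shared peaks, at a median of 108 kb from a protein-coding TSS. Protein-coding genes alone gave 3451 members, or 36.9% of the shared peaks. A RUNX2 score of at least 100 left 806 members, 21.4% of the shared peaks, with 623 nearest genes, a share of 20.0% with another member within 25 kb and a RUNX core in 52.6%. Another member lay within a reach of 100 kb of 51.8% and within the shorter reach tried, at 0.5 of the main one, of 23.6%, and with an overlap of 50% of both peaks the share within 25 kb was 26.0%. The longer core was found in 27.6%. Within 50 bp of the midpoint the RUNX core stood in 28.7% and AP-1 in 5.65%, and anywhere in the peak in 87.1% and 32.1%. At a GC content of 40 to 50%, an alternative chosen after seeing the data, the core stood in 54.1%. Leaving out dense windows or chromosome ends and gaps moved no value past its interval. No paired analysis was possible because there was 1 library per antibody.

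Read depth was not known, so peaks missed for want of reads cannot be told from absent binding. Peaks in repeats near chromosome ends and gaps could not be checked against the input library, which was not analysed here.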
